A study of Mus musculus with 24 samples.

Results

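The genes described here are 34 genes of fatty acid uptake, activation and mitochondrial oxidation in mouse liver, chosen by symbol from the 41388 genes of the count files. All 34 were found, each as 1 gene, and all passed the filter on low counts, so each was tested. They fall into 9 roles: 4 genes of uptake and binding, 4 of long-chain activation, 3 of medium-chain activation, 4 straight-chain acyl-CoA dehydrogenases, 6 other members of the acyl-CoA dehydrogenase family, 5 enzymes of hydration, second oxidation and thiolysis, 3 auxiliary enzymes for unsaturated chains, 3 electron transfer genes and the 2 subunits of propionyl-CoA carboxylase.

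Polyadenylated RNA of liver was sequenced in a factorial design of 4 groups, each labelled with 6 libraries. Control mice carried a floxed Gpt2 gene (fl/fl), and knockout mice were labelled LSALT2KO, a liver knockout of this gene, which encodes alanine transaminase 2. For each genotype 1 group had free access to food and 1 was without food for 18 h. The sources used here give neither the Cre driver nor the animals' ages. Nothing in the labels states that the libraries are from separate animals, so that p-values here rest on the spread between libraries, which may be technical in part.

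Fatty acids that reach the liver are taken up by membrane proteins, held in the cytosol by a binding protein and joined to coenzyme A, which activates them. Long-chain acyl groups then cross into mitochondria through the carnitine shuttle and are shortened in a repeating spiral of oxidation, hydration, a second oxidation and thiolysis. The first oxidation passes its electrons through electron transfer flavoprotein to the respiratory chain, and the acetyl-CoA formed is used further in the liver.

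Of the 24 labelled libraries 22 were used: 5 control fed, 5 control fasted, 6 knockout fed and 6 knockout fasted, with 18.4 M to 55.3 M reads assigned to genes. The file of control fed replicate 6 was truncated. In the library labelled control fasted replicate 4, Alb, the hepatocyte gene for albumin, stood at 75.7 CPM against 45450 to 99525 CPM in the other control fasted libraries, and Kap, a kidney androgen-regulated gene, at 4346 CPM against at most 9.21 CPM in any other library (CPM, a gene's reads per M assigned reads, here scaled by TMM factors). In it 20 of the 34 members lay below the range of the other control fasted libraries, 8 above and 6 within, with Fabp1 at 2.71 CPM against 2041 to 4349. The hepatocyte markers summed to between 68089 and 151358 CPM in the 22 libraries, and the kidney markers to at most 19.6 CPM, that highest sum being in a control fasted library. Gpt2, the targeted gene, stood between 307 and 795 CPM in the control and between 48.3 and 148 CPM in the knockout libraries, so that it separated the genotypes without overlap.

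Fasting raised a large part of the pathway in control livers and lowered 1 gene. Of the 34 members, 14 rose, by 1.38- to 2.92-fold, 1 fell, and 19 did not pass (edgeR quasi-likelihood test, Benjamini-Hochberg adjusted p under 0.05 over 16757 genes). Among all genes tested, 3.99% rose and 4.13% fell in the same comparison. The median log2 fold change was 0.26 over the members and 0.00 over all genes. By role, all 3 auxiliary enzymes and 3 of 4 straight-chain dehydrogenases rose, and neither subunit of propionyl-CoA carboxylase passed; differences between the roles were not tested. Because the tissue was sequenced in bulk, a change in the number of cells of a type and a change in RNA per cell cannot be told apart.

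**Figure D1:**
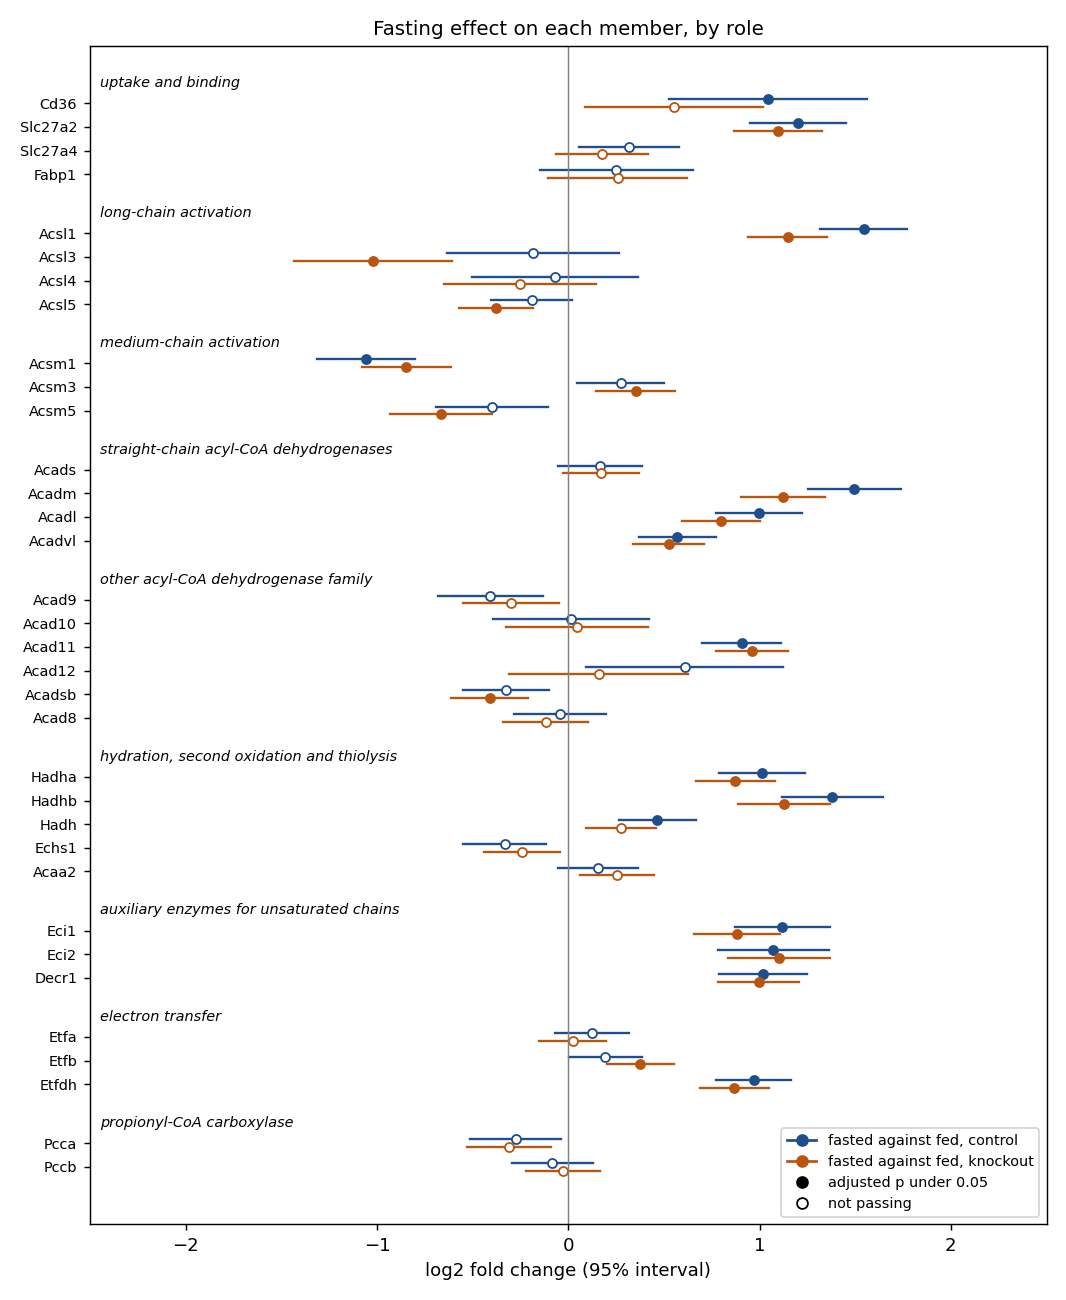
Log2 fold change of fasted against fed livers (x axis) for the 34 members (y axis, grouped by role), with 95% intervals, in control (blue) and knockout (orange) livers; filled points passed at an adjusted p under 0.05. Points filled to the right in both genotypes are Slc27a2, Acsl1, Acadm, Acadl, Acadvl, Acad11, Hadha, Hadhb, Eci1, Eci2, Decr1 and Etfdh. Acsl1 at 1.55 in control livers is the highest estimate, and Acsm1 is the one gene filled to the left in both genotypes.

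Of the genes of uptake and binding, 2 of 4 rose in fasted control livers, Slc27a2 and Cd36. Slc27a2 encodes fatty acid transport protein 2, which imports fatty acids and activates very long chains in hepatocytes. Its level was 802, 974, 667, 718 and 614 CPM in the 5 control fed libraries and 1809, 1795, 1843, 1559 and 1689 CPM in the 5 control fasted libraries. Every fasted library stood above every fed one, and the log2 fold change was 1.20 (SE 0.13, adjusted p = 5.22e-08). An exon of Slc27a2 overlaps the antisense gene Gm26697, and without a stated strand setting their reads cannot be told apart, although Gm26697 held 357 reads over all 22 libraries against 991119 for Slc27a2.

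Cd36 encodes a scavenger receptor that carries long-chain fatty acids across the membrane and is scarce in hepatocytes of lean mice. It was measured at 9.54, 6.87, 10.3, 7.35 and 12.5 CPM in control fed and at 15.3, 26.8, 13.2, 19.4 and 21.4 CPM in control fasted libraries. The ranges did not overlap, although the lowest fasted and the highest fed library lay close together, and the log2 fold change was 1.04 (SE 0.26, adjusted p = 0.0115). The call was lost with limma voom and sample weights, where the log2 fold change was 0.96 and the adjusted p 0.0911. With control fasted replicate 4 kept in, whose Cd36 level was 165 CPM, the log2 fold change of Cd36 was 2.21 (adjusted p = 0.0254). Cd36 is also made by endothelial cells, whose 8 markers summed to 110 to 172 CPM in control fed and 140 to 185 CPM in control fasted libraries, with 1 of 8 called, Lyve1, at a log2 fold change of 1.28. Of these 8 markers 7 had a positive estimate, 4 had an unadjusted p under 0.05, and the median log2 fold change was 0.29. An unadjusted p under 0.05 was held by 3276 of 16757 genes in the same comparison. The 9 markers of Kupffer cells and macrophages, which also make Cd36, summed to 113 to 189 CPM in control fed and 104 to 129 CPM in control fasted libraries. Of these 9 markers 1 had a positive estimate, 0 passed, and the median log2 fold change was -0.39. Adipocyte markers summed to 4.36 to 14.9 CPM in control fed and 2.41 to 9.01 CPM in control fasted libraries. The part of any of these cells in the Cd36 result was not tested.

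Slc27a4, which encodes fatty acid transport protein 4, did not pass, with a log2 fold change of 0.32 (SE 0.13, adjusted p = 0.159). Fabp1, the liver fatty acid binding protein that buffers fatty acids in the cytosol, also did not pass. It had the highest mean CPM of all members in control fed and in control fasted livers. Its level was 2678, 3424, 3152, 2119 and 1502 CPM in control fed and 3792, 2596, 1995, 4238 and 2711 CPM in control fasted libraries. The groups overlapped over most of their range, and the log2 fold change of 0.25 had a 95% interval from -0.15 to 0.65.

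The promoter of Fabp1 is shown because it held the one match among the members to a loose form of the response element bound by PPAR nuclear receptors, which govern many genes of fatty acid oxidation. Promoter windows were those of RefSeq on GRCm38.p6, 250 bases before to 50 after the start of each gene, and 31 of the 34 members had one (Acaa2, Decr1 and Acad9 did not match). The stretch printed is chr6:71199629-71199826 on the plus strand, 5′ to 3′, ending 53 bases before the start. Capitals mark the match.
Fabp1: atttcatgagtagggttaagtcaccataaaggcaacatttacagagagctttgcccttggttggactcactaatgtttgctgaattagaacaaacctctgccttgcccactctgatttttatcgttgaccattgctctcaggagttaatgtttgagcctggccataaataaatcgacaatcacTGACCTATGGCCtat
The motif searched was GGNCANAGGNCA on both strands, a direct repeat of receptor half-sites with 1 base between them. It was found in 1 of 31 members and in 0.801% of 32851 windows. Members are counted by gene here and below (31 genes with 33 windows), and percentages by window, so their units differ. The strict form, AGGTCANAGGTCA, was found in 0 of 31 members and in 0.0396% of windows. The Fabp1 match lies on the minus strand, 67 bases before the start, and contains the half-site AGGTCA, which the half-site search also counts. These are matches of letters and do not show binding.

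Among the 4 long-chain acyl-CoA synthetases, 1 rose in fasted control livers and 3 did not pass. Acsl1, which activates long-chain fatty acids and is the main such enzyme of hepatocytes (chr8:46471041-46536051, GRCm38), had the largest estimate and the smallest p of all members. It went from 669, 778, 721, 760 and 604 CPM in control fed to 1968, 1942, 2382, 2253 and 1769 CPM in control fasted libraries. The lowest fasted library stood far above the highest fed one, and the log2 fold change was 1.55 (SE 0.12, 2.92-fold, adjusted p = 1.09e-10). Acsl5, an isoform of mitochondria and endoplasmic reticulum, stood at 247, 249, 251, 269 and 254 CPM in control fed and at 240, 236, 184, 262 and 190 CPM in control fasted libraries. These ranges overlapped, and its log2 fold change of -0.19 (SE 0.11, adjusted p = 0.35) did not pass. Acsl4, an isoform that prefers arachidonic acid, had -0.07 and Acsl3, an isoform of lipid droplets, had -0.18, with 95% intervals from -0.50 to 0.37 and from -0.63 to 0.27. Per kilobase of gene length, the median ratio of Acsl1 to Acsl5 was 0.943 in control fed and 2.86 in control fasted libraries, with ranges of 0.793 to 1.04 and 2.74 to 4.31.

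The medium-chain acyl-CoA synthetases, matrix enzymes that activate medium-chain fatty acids and xenobiotic acids, held the only member that fell in control livers. Acsm1 was measured at 458, 367, 358, 391 and 303 CPM in control fed and at 186, 211, 172, 128 and 204 CPM in control fasted libraries. All fasted libraries lay below all fed ones, with a log2 fold change of -1.06 (SE 0.13, adjusted p = 6.41e-07). Acsm5 went from 133, 121, 132, 122 and 119 CPM to 108, 88.9, 95.5, 73.6 and 109 CPM. Its ranges did not overlap either, but the log2 fold change of -0.40 (SE 0.15) gave an adjusted p of 0.101. Acsm3 had a positive estimate of 0.27 (SE 0.12, adjusted p = 0.165), again with ranges apart. The 3 genes lie near each other on chromosome 7, and because they are paralogs reads in stretches of like sequence could be split between them. Acsm3 shares 1962 exon bases with Eri2 on the opposite strand (2851 reads in 22 libraries, against 38440 for Acsm3).

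Of the 4 straight-chain acyl-CoA dehydrogenases, which catalyse the first oxidation and differ in the chain length they take, 3 rose in fasted control livers and the short-chain enzyme did not pass. Acadm, the medium-chain dehydrogenase, had 152, 182, 140, 173 and 127 CPM in control fed and 460, 471, 365, 499 and 391 CPM in control fasted libraries, with a log2 fold change of 1.496 (SE 0.12, adjusted p = 5.83e-10). Acadl, the long-chain dehydrogenase, had 121, 140, 98.9, 144 and 109 CPM and then 270, 240, 230, 245 and 238 CPM, with a log2 fold change of 0.999 (SE 0.11, adjusted p = 1.91e-07). For both genes the lowest fasted library was far above the highest fed one. Acadvl, the very-long-chain dehydrogenase of the inner membrane, rose from 127, 150, 123, 128 and 131 CPM to 189, 215, 174, 201 and 200 CPM, a log2 fold change of 0.57 (SE 0.10, adjusted p = 0.000236). With control fasted replicate 4 kept in, Acadvl did not pass (log2 fold change 0.46, adjusted p = 0.056), and 1151 of its exon bases overlap Dvl2 on the opposite strand (5014 reads against 128574 for Acadvl). Acads, the short-chain dehydrogenase, stood at 153, 153, 155, 127 and 150 CPM in control fed and at 171, 151, 167, 148 and 191 CPM in control fasted libraries. Its ranges overlapped, and the log2 fold change of 0.17 had a 95% interval from -0.05 to 0.38. Per kilobase, the median ratio of Acadm to Acads was 0.770 in control fed and 2.08 in control fasted libraries, with ranges of 0.658 to 1.05 and 1.59 to 2.61.

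The promoters of these 4 genes are shown because the genes encode enzymes of one reaction and 3 of them rose while Acads did not pass. Each stretch is the 250 bases before the RefSeq start on GRCm38.p6, on the minus strand, 5′ to 3′, and capitals mark the half-site AGGTCA or its reverse complement. The positions are chr3:153944644-153944893 for Acadm, chr1:66863310-66863559 for Acadl, chr11:70015429-70015678 for Acadvl and chr5:115119347-115119596 for Acads.
Acadm: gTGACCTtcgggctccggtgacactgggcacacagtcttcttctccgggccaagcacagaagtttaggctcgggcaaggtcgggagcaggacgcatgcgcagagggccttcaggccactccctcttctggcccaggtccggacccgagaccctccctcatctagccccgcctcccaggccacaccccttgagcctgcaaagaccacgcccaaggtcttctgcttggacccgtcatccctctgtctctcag
Acadl: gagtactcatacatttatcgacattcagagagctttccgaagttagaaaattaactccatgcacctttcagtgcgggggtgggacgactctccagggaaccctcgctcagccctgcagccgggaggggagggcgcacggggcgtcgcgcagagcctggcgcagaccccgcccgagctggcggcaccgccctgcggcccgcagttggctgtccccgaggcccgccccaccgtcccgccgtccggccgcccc
Acadvl: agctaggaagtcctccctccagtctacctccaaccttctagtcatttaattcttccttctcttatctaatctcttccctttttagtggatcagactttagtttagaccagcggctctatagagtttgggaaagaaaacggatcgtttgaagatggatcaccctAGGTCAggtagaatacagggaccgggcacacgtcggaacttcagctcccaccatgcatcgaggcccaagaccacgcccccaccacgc
Acads: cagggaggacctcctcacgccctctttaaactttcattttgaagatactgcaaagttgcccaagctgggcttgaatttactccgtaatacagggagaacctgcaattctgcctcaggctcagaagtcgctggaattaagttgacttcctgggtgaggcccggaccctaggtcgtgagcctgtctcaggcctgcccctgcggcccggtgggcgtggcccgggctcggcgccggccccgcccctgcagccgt
The half-site occurred in the Acadm window 249 bases and in the Acadvl window 87 bases before the start, and in neither the Acadl nor the Acads window. It was found in 8 of the 31 member genes with a window (Acadm, Acadvl, Acsm1, Cd36, Echs1, Fabp1, Pcca and Slc27a2). Of all windows, counted singly and not by gene, 16.3% held it. The 8 include 4 that rose in control livers, Acsm1, which fell, and 3 that did not pass. The GC content of the printed stretches was 64.0% for Acadm, 68.0% for Acadl, 49.6% for Acadvl and 60.4% for Acads. The letters TATAAA of the TATA box were searched on both strands and at any position of a window. They were found in 1 of 31 members, Fabp1 (plus strand, 30 bases before the start), and in 13.6% of all windows.

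**Figure D2:**
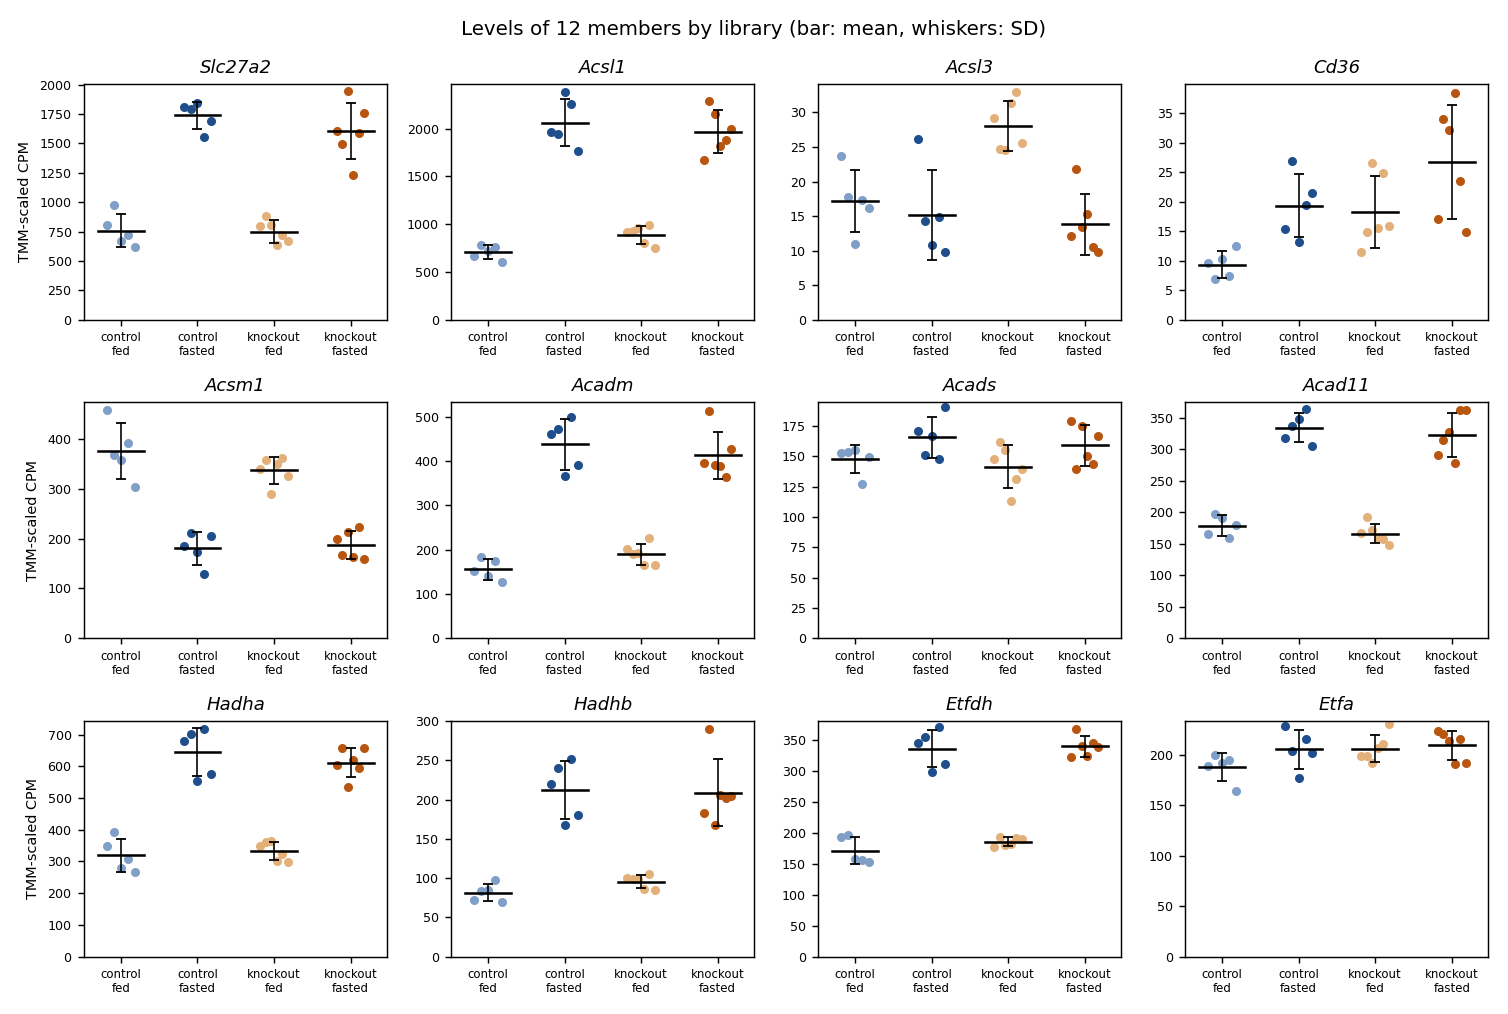
TMM-scaled CPM (y axis, from 0) of 12 members in each of the 22 libraries, by group (x axis); points are libraries, bars means and whiskers SD. Slc27a2, Acsl1, Acadm, Acad11, Hadha, Hadhb and Etfdh are higher in every fasted than in every fed library of the same genotype, Acsm1 is lower, and Acads and Etfa overlap between the feeding states.

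Among the 6 other members of the dehydrogenase family, 1 rose in fasted control livers and 5 did not pass. Acad11, which acts on very long and hydroxylated chains, went from 166, 198, 191, 159 and 179 CPM in control fed to 318, 337, 349, 364 and 305 CPM in control fasted libraries, with no overlap and a log2 fold change of 0.91 (SE 0.11, adjusted p = 2.34e-07). It shares exon bases with Ackr4 on the opposite strand (2669 reads against 203291). Acad9, known for its part in the assembly of respiratory complex I, had 33.4, 28.3, 31.8, 23.1 and 31.5 CPM in control fed and 24.5, 26.3, 18, 20.7 and 22.4 CPM in control fasted libraries. The groups overlapped, and its log2 fold change of -0.41 (SE 0.14, adjusted p = 0.0711) did not pass. Acadsb, which acts in isoleucine breakdown, had -0.33 (adjusted p = 0.0742), and Acad8, which acts in valine breakdown, had -0.04. The estimates were 0.01 for Acad10 and 0.61 (SE 0.26, adjusted p = 0.176) for Acad12, the least abundant member. Acad12 and Acad10 are neighbouring paralogs on chromosome 5 with 2087 bases between them, so reads could be split between the pair.

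Of the 5 enzymes that complete the spiral, 3 rose in fasted control livers. Hadha and Hadhb encode the subunits of the trifunctional protein, which hydrates, oxidises and cleaves long-chain intermediates at the inner membrane. Hadha had 350, 394, 280, 306 and 267 CPM in control fed and 678, 703, 552, 717 and 575 CPM in control fasted libraries (log2 fold change 1.01, SE 0.11, adjusted p = 1.4e-07). Hadhb had 72.4, 83.3, 84.6, 97.3 and 70.2 CPM and then 220, 240, 168, 252 and 181 CPM (log2 fold change 1.38, SE 0.13, adjusted p = 9.87e-09). Both subunits were higher in every fasted than in every fed library. Per kilobase of annotated gene length (6595 bases for Hadhb, 5341 for Hadha), Hadhb was the lower subunit in each library. The lengths of the transcripts present were not measured, so the size of this ratio is uncertain. The median ratio of Hadhb to Hadha was 0.213 (0.168 to 0.257) in control fed and 0.263 (0.246 to 0.285) in control fasted libraries, ranges that overlap.

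The 2 subunit genes lie head to head on chromosome 5 with 85 bases between their starts in the files' annotation, so that the stretch between them is the upstream sequence of both. The part of it inside the RefSeq window of Hadha is shown, from position -250 to -183 relative to the RefSeq start of Hadha. It ends at the edge of that window, so the bases next to the start of Hadhb in the files' annotation are left out. The part shown also lies before the RefSeq start of Hadhb. It is chr5:30155163-30155230 of GRCm38.p6 on the minus strand, the sense of Hadha, and holds no match to any of the motifs searched.
Hadha and Hadhb: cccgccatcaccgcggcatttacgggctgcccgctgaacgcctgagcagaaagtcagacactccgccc
The part shown is 68 bases long with a GC content of 66.2%.

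The other enzymes of the spiral moved less. Hadh, the hydroxyacyl-CoA dehydrogenase for shorter chains, rose from 245, 218, 219, 211 and 209 CPM to 339, 293, 275, 298 and 317 CPM, a log2 fold change of 0.47 (SE 0.10, adjusted p = 0.00257), without overlap. Echs1, the short-chain enoyl-CoA hydratase, had a negative estimate of -0.33 (SE 0.11, adjusted p = 0.0581) and did not pass. Acaa2, the mitochondrial thiolase for medium chains, had 0.15 (SE 0.11, adjusted p = 0.493). Thus the genes of the membrane-bound complex for long chains passed, as did 1 of the 3 matrix enzymes.

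All 3 auxiliary enzymes, which prepare unsaturated chains for the spiral, rose in fasted control livers by like amounts. Eci1, an enoyl-CoA isomerase of mitochondria, had 85.7, 118, 71.2, 72.3 and 68.5 CPM in control fed and 190, 190, 158, 174 and 191 CPM in control fasted libraries (log2 fold change 1.12, SE 0.13, adjusted p = 1.49e-07). Decr1, the mitochondrial dienoyl-CoA reductase, had 91.6, 115, 105, 98.1 and 83.1 CPM and then 186, 217, 179, 239 and 176 CPM (log2 fold change 1.02, SE 0.12, adjusted p = 2.18e-07). The fed and fasted ranges of both were apart. Eci2, an isomerase found in mitochondria and peroxisomes, had a log2 fold change of 1.07 (SE 0.15, adjusted p = 4.9e-06), and 189 of its exon bases overlap Gm16984 on the opposite strand (1287 reads against 99242).

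Of the electron transfer genes, Etfdh rose and the 2 flavoprotein subunits did not pass. Etfdh encodes the oxidoreductase that hands electrons from electron transfer flavoprotein to ubiquinone. It had 194, 197, 158, 156 and 153 CPM in control fed and 345, 356, 299, 371 and 311 CPM in control fasted libraries, with a log2 fold change of 0.97 (SE 0.10, adjusted p = 3.1e-08). The lowest fasted library was well above the highest fed one. Etfb, the beta subunit, had 271, 270, 237, 233 and 226 CPM and then 299, 291, 264, 287 and 274 CPM, which overlap (log2 fold change 0.19, SE 0.10, adjusted p = 0.27). Etfa, the alpha subunit, had an estimate of 0.13 (95% interval -0.07 to 0.32). The median per-kilobase ratio of Etfa to Etfb was 0.460 in control fed and 0.457 in control fasted libraries, while that of Etfdh to Etfa was 0.253 (0.217 to 0.278) and 0.459 (0.409 to 0.473).

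**Figure D3:**
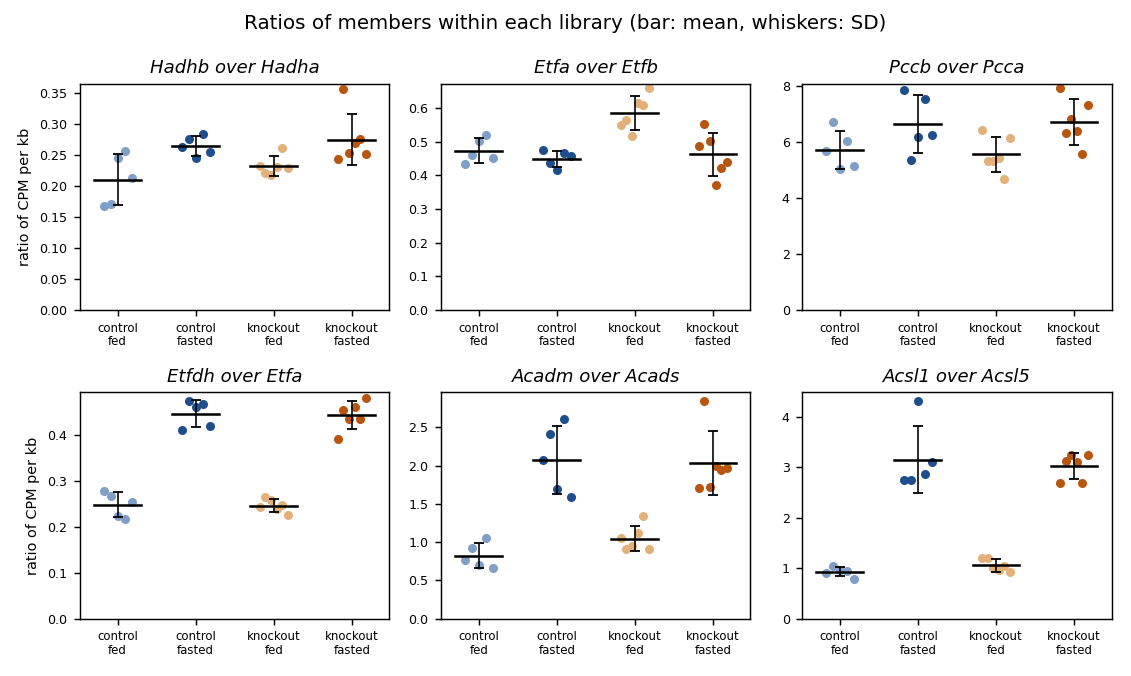
Ratio of 2 members' CPM per kilobase within each library (y axis, from 0) by group (x axis), for 6 pairs; points are libraries, bars means and whiskers SD. In the lower row (Etfdh over Etfa, Acadm over Acads, Acsl1 over Acsl5) every fasted library lies above every fed library of its genotype, whereas the subunit pairs of the upper row overlap between control fed and control fasted libraries.

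The subunits of propionyl-CoA carboxylase, which turns the end product of odd chains and of some amino acids into methylmalonyl-CoA, did not pass. Pcca had 59.7, 54, 53.6, 60.3 and 63.1 CPM in control fed and 46.7, 58.6, 47.7, 34.6 and 52.8 CPM in control fasted libraries (log2 fold change -0.28, SE 0.12, adjusted p = 0.191). Pccb had 180, 193, 143, 194 and 173 CPM and then 196, 167, 157, 139 and 176 CPM (log2 fold change -0.08, SE 0.11, adjusted p = 0.777). Both sets of ranges overlap. Pcca shares 241 exon bases with Ggact on the opposite strand, which held 35979 reads against 42288 for Pcca.

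By range, 15 of the 34 members were higher in every fasted than in every fed control library and 3 were lower in every one, against 3.87% and 4.03% of all genes. The 15 are the 14 that rose and Acsm3, and the 3 are Acsm1, Acsm5 and Acadsb. With control fasted replicate 4 kept in, 13 members rose and 1 fell in control livers.

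In knockout livers fasting raised 12 of the 14 genes that it raised in control livers. Of the 34 members, 14 rose, by 1.28- to 2.21-fold, and 5 fell, against 2.88% and 3.26% of all genes, and 15 did not pass; the median log2 fold change was 0.26 over the members and 0.01 over all genes. When library totals replaced the TMM factors, 36.7% of the genes called were higher, against 46.9% with the factors, and 13 members rose and 5 fell. The 12 genes that rose in both genotypes were Slc27a2, Acsl1, Acadm, Acadl, Acadvl, Acad11, Hadha, Hadhb, Eci1, Eci2, Decr1 and Etfdh, and Acsm1 fell in both. By range, 13 members were higher and 5 lower in every fasted than in every fed knockout library, against 1.81% and 2.15% of all genes.

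The levels in knockout livers are given as lowest, median and highest of 6 libraries. Slc27a2 had 632, 758 and 880 CPM fed and 1232, 1597 and 1943 CPM fasted, a log2 fold change of 1.10 (SE 0.12, adjusted p = 4.34e-08). Acsl1 had 750, 921 and 990 CPM fed and 1671, 1940 and 2286 CPM fasted, a log2 fold change of 1.15 (SE 0.10, adjusted p = 3.46e-09). In both genes, one for uptake and one for activation, the fed and fasted libraries were apart. Acadm had 164, 190 and 226 CPM fed and 363, 393 and 513 CPM fasted (log2 fold change 1.12, SE 0.11, adjusted p = 1.5e-08). Acadl, with a log2 fold change of 0.80 (SE 0.10), and Acadvl, with 0.52 (SE 0.09), rose as well, and Acads did not pass at 0.17 (adjusted p = 0.456). So the order of the estimates among the chain-length enzymes, Acadm, Acadl, Acadvl and Acads from high to low, was that of the control livers.

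Of the later steps, Hadha had 299, 337 and 366 CPM fed and 536, 612 and 659 CPM fasted (log2 fold change 0.87, SE 0.10, adjusted p = 3.27e-07). Hadhb had 84.9, 98.5 and 105 CPM fed and 168, 204 and 290 CPM fasted (log2 fold change 1.13, SE 0.12, adjusted p = 6.39e-08). The 2 subunits of the trifunctional protein thus rose together here too. Etfdh had 177, 186 and 194 CPM fed and 323, 340 and 368 CPM fasted (log2 fold change 0.87, SE 0.09, adjusted p = 3.59e-08). Acad11 had a log2 fold change of 0.96, Eci1 of 0.88, Eci2 of 1.10 and Decr1 of 0.99, with SEs of 0.10 to 0.14. Acsm1 had 290, 345 and 361 CPM fed and 159, 183 and 222 CPM fasted, and fell by 0.85 on the log2 scale (SE 0.12, adjusted p = 5.62e-06).

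In all, 8 members passed in one genotype and not in the other, and for none of them did the test of the difference between the genotypes pass. In control livers alone, Cd36 and Hadh rose. In knockout livers Cd36 had a log2 fold change of 0.55 (SE 0.24, adjusted p = 0.216) and Hadh 0.28 (SE 0.09, adjusted p = 0.0798), both in the same direction. In knockout livers alone, Acsm3 (log2 fold change 0.35, adjusted p = 0.0385) and Etfb (0.38, adjusted p = 0.00578) rose. Acsl3 (-1.02, adjusted p = 0.00176), Acsl5 (-0.38, adjusted p = 0.0144), Acsm5 (-0.67, adjusted p = 0.00119) and Acadsb (-0.41, adjusted p = 0.0104) fell. With control fasted replicate 4 kept in, Acsl5, Acsm3 and Etfb did not pass in knockout livers, at adjusted p values of 0.639, 0.728 and 0.0785. Their log2 fold changes in that fit were -0.37, 0.35 and 0.38, and the library is in neither group compared but shares the fit and its estimate of spread. Acsm3 also lost its call in 12 other settings, with library totals (adjusted p = 0.191), without a filter on low counts (0.101), with only the groups compared (0.0661), and when any of 9 single knockout libraries was left out (0.0531 to 0.0996). Over all 34 members the fasting estimate had the same sign in both genotypes.

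Between the genotypes no member passed, in either feeding state. In fed livers 0 of 34 members were called with edgeR, and 0.00597% of all genes, which is 1 gene, Gpt2. An unadjusted p under 0.05 was held by 4 of the 34 members and by 1509 of all 16757 genes tested. In fasted livers 0 of 34 were called, and again 0.00597% of all genes. There 1 member and 672 of the 16757 genes had an unadjusted p under 0.05. With DESeq2, 1 member was called in fed livers, Cd36, and 0 in fasted livers. The median log2 difference of knockout against control over the members was 0.05 in fed and -0.03 in fasted livers, against 0.00 and 0.01 over all genes.

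The 3 members with the smallest p in fed livers were Cd36, Acsl3 and Acsl1, each higher in the knockout by estimate. Cd36 had 11.5, 15.7 and 26.6 CPM in knockout fed libraries (lowest, median and highest), against 6.87 to 12.5 CPM in the control fed libraries given above. The 2 groups overlapped, and the log2 difference was 0.96 (95% interval 0.46 to 1.46, edgeR adjusted p = 0.211, DESeq2 adjusted p = 0.0449). The endothelial markers summed to 161 to 234 CPM in knockout fed against 110 to 172 CPM in control fed libraries, ranges that overlap. Of these 8 markers 7 had a positive estimate and 0 passed. The nearest to passing was Kdr, at 0.87 (edgeR adjusted p = 0.0511). The 9 Kupffer cell and macrophage markers, cells that also make Cd36, summed to 150 to 239 against 113 to 189 CPM, and 8 of 9 had a positive estimate. Adipocyte markers, whose cells are rich in Cd36, summed to 4.74 to 15.1 against 4.36 to 14.9 CPM, with Lep at 0 in every fed library. The part of these cells in the Cd36 difference was not tested.

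Acsl3 was the one member whose ranges were apart between the genotypes, where 1.18% of all genes were apart in fed livers. It had 23.7, 17.7, 11, 17.3 and 16.2 CPM in control fed and 24.6, 27.4 and 33 CPM in knockout fed libraries, a log2 difference of 0.71 (95% interval 0.27 to 1.14, adjusted p = 0.293). The highest control library lay just below the lowest knockout library. Acsl3 shares 244 exon bases with Utp14b on the same strand (7931 reads against 14736 for Acsl3), so its level is uncertain. Acsl1 had a log2 difference of 0.33 (95% interval 0.12 to 0.55, adjusted p = 0.319) between fed livers, and its ranges overlapped.

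In fasted livers, where 0 members and 0.489% of all genes had ranges apart, the smallest p values were those of Eci1, Cd36 and Slc27a4. Eci1 had 115, 157 and 162 CPM in knockout fasted libraries, with 158 to 191 CPM in control fasted ones, a log2 difference of -0.27 (95% interval -0.50 to -0.03, unadjusted p = 0.0313, edgeR adjusted p = 1). Cd36 had 14.8, 27.8 and 38.4 CPM in knockout fasted libraries, a log2 difference of 0.47 (95% interval -0.02 to 0.96). Beside it, 7 of the 8 endothelial markers had a positive estimate and 4 an unadjusted p under 0.05 (median 0.42, sum 164 to 239 CPM in knockout fasted against 140 to 185 CPM in control fasted libraries). Of the Kupffer cell and macrophage markers 9 of 9 were positive by estimate and 7 had an unadjusted p under 0.05 (median 0.67, sum 119 to 252 against 104 to 129 CPM). None of these markers passed after adjustment with edgeR, and the part of these cells in the Cd36 difference was not tested. With control fasted replicate 4 kept in, this Cd36 difference was -0.69 (adjusted p = 0.927), since that library is among the controls. Slc27a4 had 31.6, 45.2 and 48.1 CPM in knockout fasted and 53.3, 47.1, 53.7, 47 and 45.7 CPM in control fasted libraries, a log2 difference of -0.20 (95% interval -0.45 to 0.05). For the 4 straight-chain dehydrogenases in fasted livers the estimates lay between -0.08 and -0.06.

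**Figure D4:**
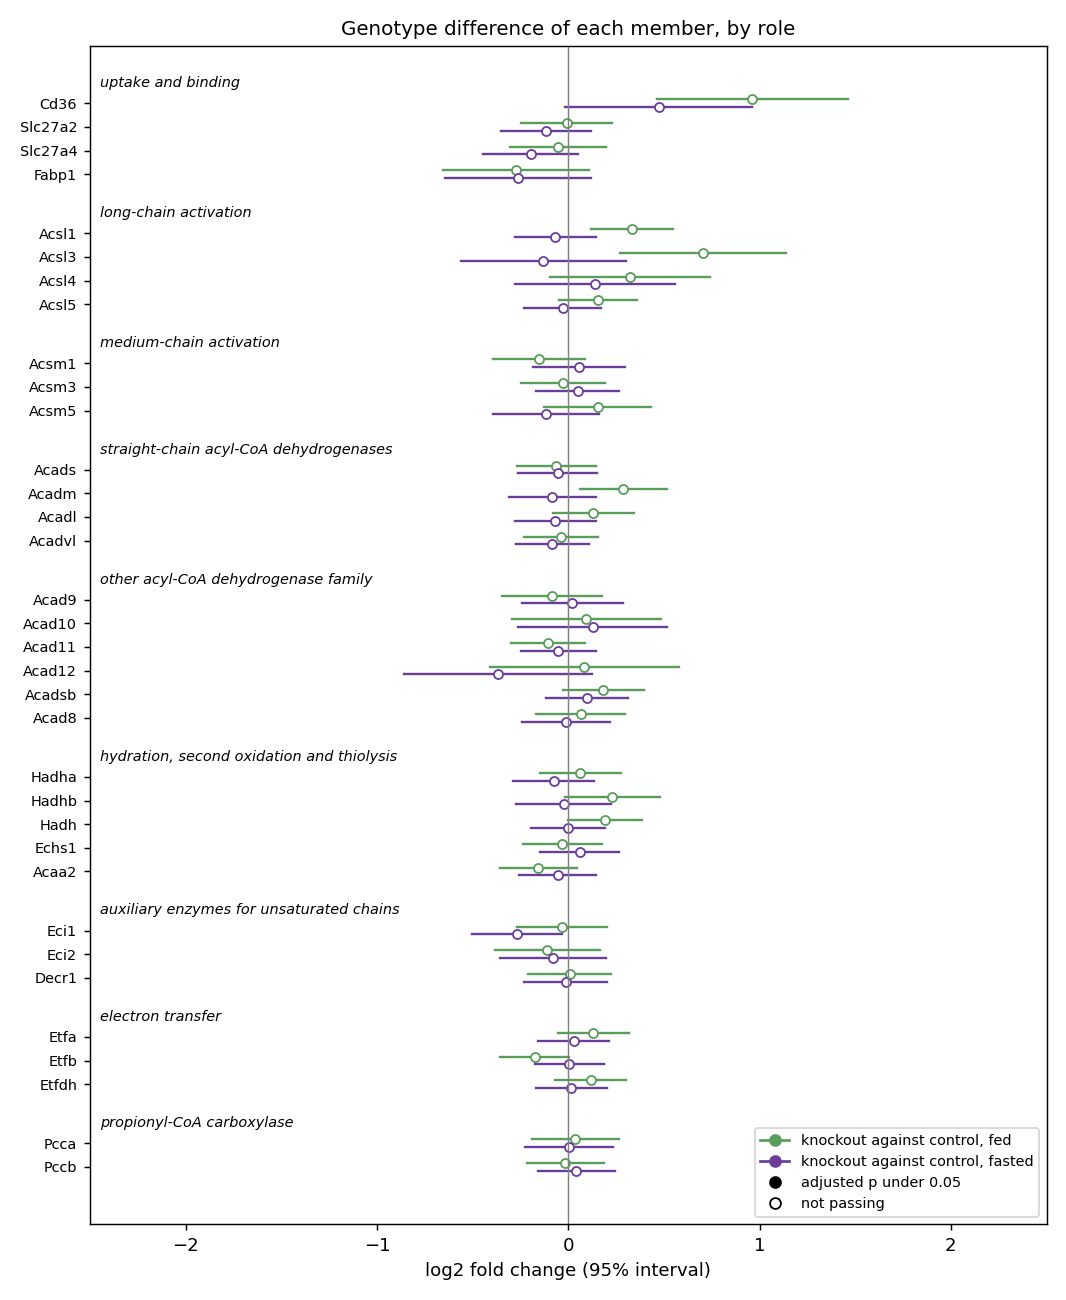
Log2 fold change of knockout against control livers (x axis) for the 34 members (y axis, grouped by role), with 95% intervals, fed (green) and fasted (purple); no point is filled, since no member passed at an adjusted p under 0.05. Cd36 (0.96) and Acsl3 (0.71) stand farthest from 0 in fed livers, and most members lie near 0 in both feeding states.

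The interaction, which asks whether fasting acted differently in the 2 genotypes, passed for 0 of 34 members with edgeR and with DESeq2. With edgeR 0.00597% of all genes were called, and 3 members and 786 of 16757 genes had an unadjusted p under 0.05. The 1 gene called was neither a member nor Gpt2. The 3 members were Acsl3 at -0.84 (95% interval -1.44 to -0.23), Acsl1 at -0.40 (-0.70 to -0.10) and Acadm at -0.37 (-0.69 to -0.05), all with an edgeR adjusted p of 0.997 or above. For Acsl1 and Acadm the fasting estimate was positive in both genotypes and lower in the knockout. For Acsl3 it was -0.18 in control and -1.02 in knockout livers, where fed libraries held 24.6 to 33 CPM and fasted ones 9.76, 12.8 and 21.9 CPM. The interaction estimate was below 0 for 22 members and above 0 for 12, where 50.7% of all genes had an estimate above 0.

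Compared per kilobase of annotated gene length, the levels of the members spanned 4021-fold in control fed livers. These lengths ran from 553 bases for Fabp1 to 9449 for Acsl1. They need not be those of the transcripts present, so the order and the shares below depend on them. Fabp1 stood at 4656 ± 1407 CPM per kilobase (SD, n = 5), followed by Acaa2 at 447 ± 47.7, Etfb at 217 ± 18.8, Slc27a2 at 201 ± 37.4 and Acsm1 at 172 ± 25.7. At the low end were Acsl3 at 3.94 ± 1.04, Acad9 at 3.56 ± 0.490, Cd36 at 2.37 ± 0.584 and Acad12 at 1.16 ± 0.531. Of 33 neighbouring pairs in this order, 27 had overlapping ranges, so that most neighbours could not be told apart; Fabp1 and Acaa2 each stood clear of the next gene. The genes of uptake and binding made up a median of 72.4% of the members' summed level per kilobase in control fed and 69.5% in control fasted libraries, most of it Fabp1. The share of the straight-chain dehydrogenases was 3.24% and 5.32%, and that of the auxiliary enzymes 2.05% and 3.62%, as medians.

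Around the members, part of the genes of other steps of the pathway rose as well. Of 70 other genes of the pathway, 67 were tested. In fasted control livers 28 rose, 5 fell and 34 did not pass, where 3.99% of all genes rose and 4.13% fell. In fasted knockout livers 25 rose, 5 fell and 37 did not pass, where 2.88% of all genes rose and 3.26% fell. In fasted control livers the carnitine shuttle, which brings acyl groups into mitochondria, rose in 6 of 7 genes. Cpt1a, its rate-limiting enzyme, had a log2 fold change of 1.70 (SE 0.14) and the carrier Slc25a20 of 1.31 (SE 0.11). Peroxisomal oxidation, which shortens very long chains, rose in 10 of 16 genes in these control livers and fell in 1. Of the genes listed under it, Ech1, a dienoyl-CoA isomerase, stood at 1.02 (SE 0.11) and Hsd17b4, a multifunctional protein, at 0.96 (SE 0.11). In knockout livers 5 of the 7 shuttle genes rose, with Cpt1a at 1.33 (SE 0.13) and Slc25a20 at 1.12 (SE 0.10). Of the 16 peroxisomal genes 8 rose and 1 fell in knockout livers.

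Of 16 other genes of uptake, binding and activation tested, 3 rose and 3 fell in control livers, with Fabp2, a binding protein best known from intestine, at 1.38 (SE 0.18) and Acss2, which activates acetate in cytosol and nucleus, at -1.85 (SE 0.24). Of 12 other mitochondrial genes 2 rose and 1 fell, with Hsd17b10, a hydroxyacyl-CoA dehydrogenase of isoleucine breakdown, at 1.36 (SE 0.14) and Acot2, a mitochondrial thioesterase, at 3.42 (SE 0.43). Of 12 regulators 3 rose, among them Ppara, the nuclear receptor that drives many genes of fatty acid oxidation, at 0.76 (SE 0.15). Fgf21, a hormone whose gene this receptor activates, had at most 0.167 CPM in control fed and 1.15 to 7.95 CPM in control fasted libraries. No fold change is given for Fgf21, and its fed levels lie near the floor, so the size of the difference is uncertain. No gene of the list was called between the genotypes or in the interaction.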

How the data were processed

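Liver RNA of 4 groups was compared over 22 libraries. Per the labels' protocols, RNA was selected with oligo-dT. The deposited counts of reads per gene came, per the submitters' processing notes, from reads made with bcl2fastq, aligned to GRCm38 with STAR 2.5.1a and counted with featureCounts 1.4.6-p5 (Subread). The sources used here name no annotation release and no strand or multimapping setting. Per the file headers and as checked, deposited CPM were counts over the library's total, and the deposited RPKM values were CPM per kilobase of gene length; both were recomputed from the counts to within 5.24e-10 and used only as a check. Gene symbols came from GENCODE M21 and matched 40254 of 41388 genes (97.3%).

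The test was that of edgeR 4.0.16 in R 4.3.3 on the counts (robust glmQLFit and glmQLFTest, TMM factors, filterByExpr by group with a minimum count of 10 and a minimum total of 15), in 1 fit of all 4 groups without covariates. A call means an adjusted p (Benjamini-Hochberg, over 16757 genes) under 0.05. SEs were obtained by dividing each log2 fold change by the root of its F, and 95% intervals are 1.96 SEs to each side. The factor 1.96 takes no account of the test's degrees of freedom, so an interval can leave out 0 where the test's p exceeds 0.05. For Etfb in fasted control livers the interval was 0.003 to 0.385, at an unadjusted p of 0.055 in the quasi-likelihood test. Levels are TMM-scaled CPM. The procedure was tested on simulated data. Control fed replicate 6 (truncated) and control fasted replicate 4 (little liver RNA by its markers) were left out; alternatives were that library kept in, DESeq2 1.42.0, voom of limma 3.58.1 with sample weights, library totals, RLE factors, a filter at a mean CPM of 1, a filter at 1 count, fits of only the groups compared, and fits without each library in turn.

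The members, the pathway and marker lists and the tests were chosen with earlier results of these data known. Given in full were, in each role, the 2 members with the smallest p for fasting in control livers and, where fewer than 5 were called in a genotype comparison or the interaction, the 3 with the smallest p there; from each pathway role up to 2 genes with the smallest p, and Gpt2; 1 pathway role is not reported here but is counted in the pathway totals. Other genes named were chosen after their values were seen.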

Additional observations from a re-analysis of the deposited data

Results flagged for a closer look

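Each member's libraries were examined within each group for 1 library far from the others (Dixon's gap test at its 95% critical value), in 136 sets of libraries, and 9 were found in 8 genes. Chance flags about 1 in 20 such sets. The lowest library stood apart for Slc27a4 in knockout fed livers (30.2 CPM), Acads in control fed livers (127 CPM), Acad9 in knockout fed livers (21.3 CPM), Hadh in knockout fed livers (209 CPM) and Eci1 in knockout fasted livers (115 CPM). The highest library stood apart for Acad12 in control fasted livers (12.8 CPM), Acadsb in knockout fed livers (138 CPM), Hadhb in knockout fasted livers (289.8 CPM) and Hadh in control fed livers (245 CPM). The rises of Hadhb and Eci1 in knockout livers and of Hadh in control livers kept their call when any 1 library was left out.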

How the results depend on the processing

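Of 34 calls of members for fasting (15 in control and 19 in knockout livers), 29 passed in all 30 alternatives, 0 changed direction, and 5 lost the call in at least 1: Acadvl and Cd36 in control livers, and Acsl5, Acsm3 and Etfb in knockout livers. With control fasted replicate 4 kept in, 805 genes were called for fasting in control and 379 in knockout livers, against 1360 and 1029 without it, and 0 in each genotype comparison and the interaction, against 1 each without it. For knockout against control in fed livers, 5 genes were called with library totals, 14 without a filter and 68 with DESeq2, which also called 1 member, Cd36. DESeq2 called 3 genes in fasted livers and 6 in the interaction; the causes were not tested. Leaving out each library in turn gave 1088 to 1434 genes for fasting in control and 845 to 1075 in knockout livers, 1 to 13 between fed genotypes, 1 to 1 between fasted genotypes and 0 to 1 in the interaction; the members called numbered 15 to 17 for fasting in control livers, 18 to 19 in knockout livers and 0 in the other comparisons. For fasting in control livers the SE was 0.26 for Cd36, 0.23 for Acsl3 and 0.26 for Acad12, which are among the least abundant members, and 0.20 for Fabp1, the most abundant; the part of depth in these was not tested. Each library's title holds its own number, shared with no other library, and the letter M, whose meaning the labels do not state. No paired analysis was made, because the labels name no pairs of libraries.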

Other observations

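In the library labelled control fasted replicate 4, which entered no comparison, the members differed from the other control fasted libraries in both directions. Slc27a2 stood at 2103 CPM (1600 to 1885 in the others), Cd36 at 165 CPM (13.5 to 27.6), Acsm3 at 196 CPM (51.0 to 56.1) and Acad12 at 24.5 CPM (7.43 to 13.1). Acsl1 stood at 315 CPM (1810 to 2437 in the others), Acsl5 at 45.9 CPM (189 to 269), Acaa2 at 203 CPM (628 to 883) and Hadha at 229 CPM (565 to 736). Acadm, at 452 CPM (373 to 512), and Acadl, at 256 CPM (235 to 278), lay within the range of the others.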
